A study of Mus musculus with 18 samples.

Results

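Collagens, laminins and integrins are the structural proteins of the extracellular matrix and the receptors that hold cells to it, and the values below are for their genes in mouse embryonic stem cells (ESCs). A gene was taken when its symbol named a collagen alpha chain, a laminin alpha, beta or gamma chain, or an integrin alpha or beta subunit, which gave 81 of 53672 listed genes: 44 collagen, 11 laminin and 26 integrin genes. Of the 81, 74 had at least 50 counts over all 18 libraries and 68 passed the filter on low counts and were tested, namely 37 collagen, 11 laminin and 20 integrin genes. *Col4a3*, *Col19a1*, *Col8a1*, *Col10a1*, *Itga2*, *Itgb6* and *Itgb8* fell short of 50 counts and were not measured, and *Col3a1*, *Col4a4*, *Col28a1*, *Itgad*, *Itgax* and *Itgb2* were counted but not tested.

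Collagens are trimers of alpha chains: the fibrillar ones form banded fibres in the interstitial matrix, whereas collagen IV forms the network of the basement membrane. Laminins are heterotrimers of one alpha, one beta and one gamma chain and organise the basement membrane, the first matrix that an embryo lays down. Integrins pair one alpha with one beta subunit, the alpha chain largely choosing the ligand. ESCs in culture are known to make laminin-511 and laminin-111 and to bind them through alpha6-beta1 integrin, whereas laminin-332, the anchoring fibril collagen VII and the laminin receptor alpha7 belong to skin epithelium and muscle.

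The cells were E14TG2a ESCs whose *Hdac1* and *Hdac2* alleles are flanked by lox sites and that carry a stable transgene for wild-type HDAC1 (HDAC1-WT) or for HDAC1 with the E63R or the Y48E substitution. Each of the 3 lines was left untreated or given 4-hydroxytamoxifen (OHT) at 1 µM to delete the endogenous alleles, with 3 libraries in each of the 6 groups. Per the study's methods, OHT was given for the first day and the cells were then cultured on to day 5. Untreated cells therefore keep their own HDAC1 and HDAC2 beside the transgene product, and after OHT the transgene product is meant to be the remaining one. All 6 groups grew on gelatine, itself a collagen product, with serum and leukemia inhibitory factor.

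The libraries held 9019615 to 11454638 counts assigned to genes. The ESC genes *Pou5f1*, *Nanog*, *Sox2*, *Zfp42*, *Esrrb* and *Utf1* were all above 1 count per 1000000 gene counts (CPM) in every group, which fits the labelled cell type, and their summed level was 3624 to 3727 CPM in untreated HDAC1-WT and 1244 to 1358 CPM in OHT-treated HDAC1-Y48E. Total counts on *Hdac1* and *Hdac2* moved by less than 2-fold with OHT in all 3 lines (log2 fold changes -0.66 to 0.22), so that gene-level counts did not check the deletion. The lines differed in *Hdac1* level. Untreated it was 201 to 210 CPM in HDAC1-WT, 94.9 to 110 CPM in HDAC1-E63R and 97.9 to 104 CPM in HDAC1-Y48E. With OHT it was 169 to 179, 112 to 131 and 110 to 113 CPM. The part of this difference in the comparisons with HDAC1-WT was not tested. Replicate 3 of untreated HDAC1-E63R stood apart: its genes with over 8000 bases of exon read lower than in the other 2 libraries of its group by a median of -0.59 on the log2 scale, and its genes under 2000 bases read higher by 0.38, whereas for the other groups these medians lay between -0.05 and 0.08. The 81 genes are long, with a median of 7111 bases of exon against 3597 for all tested genes, and members called in HDAC1-E63R are therefore also given without that library.

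In untreated HDAC1-WT the levels of these genes spanned basement membrane chains, a cartilage collagen and receptors for laminin, fibronectin and vitronectin. Per kb of exon, *Itgb1*, the beta subunit shared by most matrix-binding integrins, was the highest of the 81 at 109.9 ± 4.22 CPM per kb (SD, n = 3). *Itga6*, the laminin receptor alpha chain, followed among the integrins at 28.6 ± 0.418 CPM per kb and *Itga5*, the fibronectin receptor alpha chain, at 24 ± 1.74 CPM per kb. *Itgb1* alone made up 75.7% ± 0.73 of the summed integrin beta level per kb.

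Among laminin chains *Lamc1* was highest, at 44.2 ± 1.37 CPM per kb, then *Lama5* at 33.5 ± 2.0 CPM per kb and *Lamb1* at 20.9 ± 0.589 CPM per kb, the 3 chains of laminin-511. The SDs of these 3 did not bridge the gaps between them. *Lama1*, the alpha chain of laminin-111, lay at 5.16 ± 0.403 CPM per kb, and *Lama3* and *Lamb3*, chains of the epithelial laminin-332, at 0.402 ± 0.0824 and 1.81 ± 0.299 CPM per kb. *Lamb2*, a beta chain of nerve and muscle basement membranes, lay at 8.2 ± 0.875 CPM per kb, above *Lama1* and below *Lamb1*.

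*Col18a1*, a basement membrane collagen whose C-terminal fragment is endostatin, led the collagens at 45.7 ± 1.74 CPM per kb, followed by *Col4a1* at 19.5 ± 0.261 CPM per kb and *Col9a2*, a chain of the cartilage collagen IX, at 17.1 ± 2.2 CPM per kb. *Col4a2*, the partner chain of *Col4a1*, stood at 10.3 ± 0.793 CPM per kb. *Col4a1* and *Col9a2* were closer to each other than their SDs added together. *Col18a1*, *Col4a1* and *Col4a2* together held 63.6% ± 0.93 of the summed collagen level per kb. The fibrillar collagens were low: 11 genes summed to 10.6 ± 0.53 CPM per kb, of which *Col5a1* held 4.13 ± 0.199 CPM per kb.

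**Figure D1:**
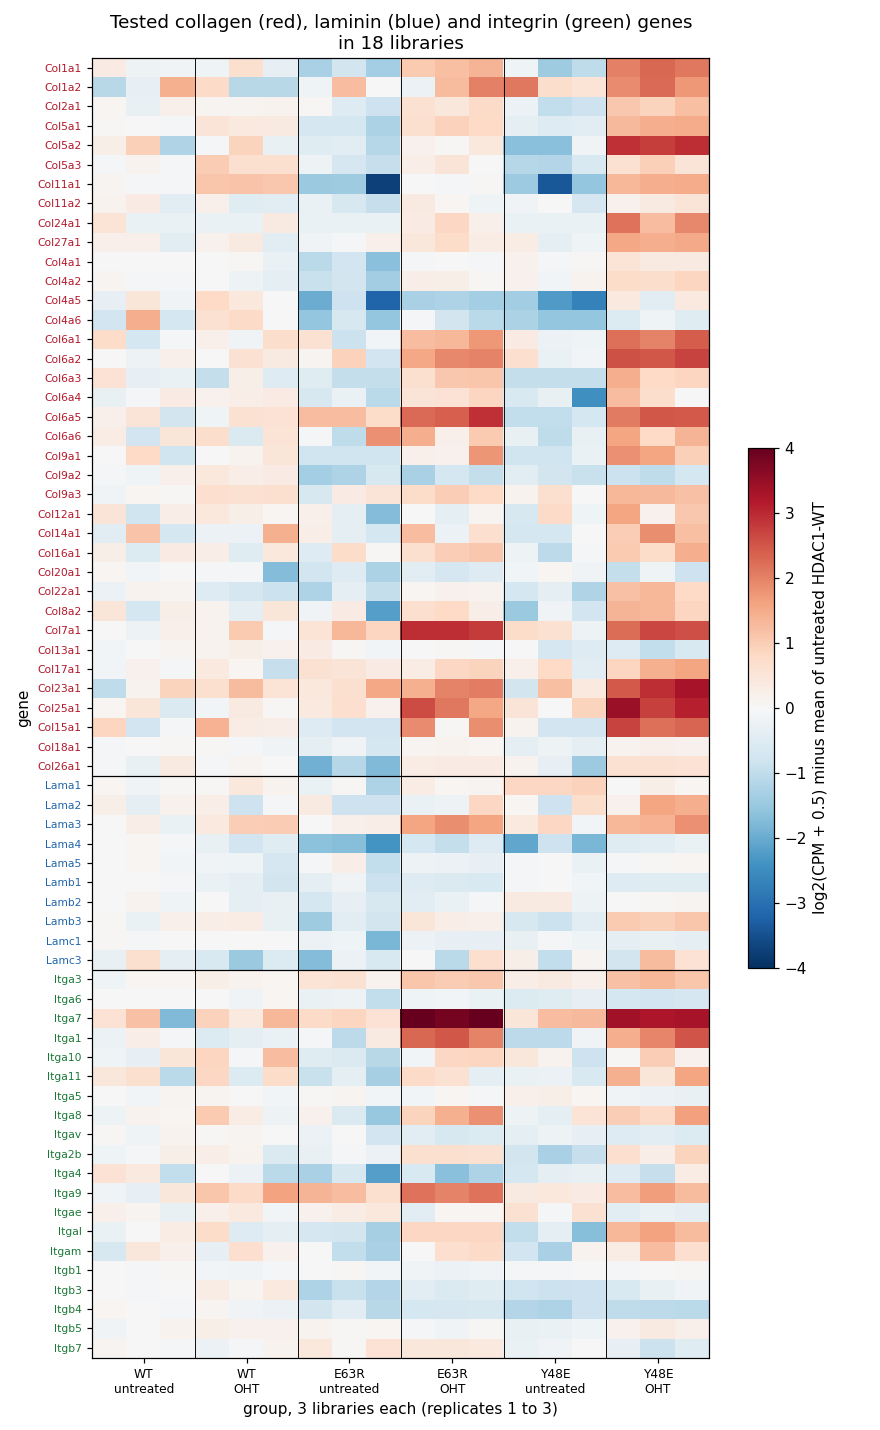
Tested member genes reported here (rows, grouped as collagens, laminins and integrins) in each of the 18 libraries (columns, 3 per group), coloured by log2(CPM + 0.5) minus the mean of the 3 untreated HDAC1-WT libraries; colours saturate at 4 on this scale. The OHT columns of HDAC1-E63R and HDAC1-Y48E are red for most collagen rows, the *Itgb1*, *Itga5* and *Lama5* rows stay pale throughout, and *Itga7* is the darkest integrin row in both.

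OHT changed genes of these families in both mutant lines, and the called changes were all rises. In HDAC1-Y48E 2 members also fell by less than 2-fold with an adjusted p under 0.01. Called genes were those with an adjusted p under 0.01 over all 18791 tested genes and a change of more than 2-fold. With OHT, 31 of the 68 tested members rose in HDAC1-Y48E and none fell, against 10.8% up and 5.84% down over all tested genes. In HDAC1-E63R 20 of 68 rose and none fell, against 4.74% up and 1.18% down over all genes. At an unadjusted p under 0.05 by the edgeR quasi-likelihood test, 5 members were lower in HDAC1-Y48E and 0 in HDAC1-E63R, and DESeq2 also called 0 lower in both. In HDAC1-WT no member was called in either direction (0.0373% up and 0.016% down over all genes). There, 6 members were higher and 2 lower at an unadjusted p under 0.05 and DESeq2 called 1, *Itga9*. The median log2 change of the 68 was 0.10 in HDAC1-WT, 1.06 in HDAC1-E63R and 1.5 in HDAC1-Y48E, beside 0.00, 0.03 and 0.05 over all tested genes. Without replicate 3 of untreated HDAC1-E63R the count of that line was 14 of 68, beside 4.71% of all genes, and the median 0.90; *Col2a1*, *Col4a1*, *Col6a2*, *Col9a1*, *Col25a1* and *Itga9* were no longer called. Leaving out replicate 3 of OHT-treated HDAC1-E63R left 13. The study describes the libraries of a group as biological replicates. The labels do not say whether they came from separate cultures. P-values measure the spread between these libraries. Of the 31 calls in HDAC1-Y48E 22 held whichever 1 of its 6 libraries was left out, and *Col8a2*, *Col9a1*, *Col9a3* and *Col24a1* were called in fewer than 3 of those 6 fits. Of the 20 calls in HDAC1-E63R 10 held in every such fit, and *Col6a2*, *Col9a1*, *Col15a1*, *Col25a1* and *Itga9* were called in fewer than 3 of 6. In bulk RNA, more cells that express a gene and more RNA per cell cannot be told apart.

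The members that rose were mostly ones that are low in untreated wild-type cells. Of the 38 tested members under 1 CPM per kb in untreated HDAC1-WT, libraries that neither mutant comparison uses, 22 (57.9%) rose in HDAC1-Y48E, beside 25.2% of the 4555 tested genes in that range. Between 1 and 10 CPM per kb it was 9 of 18, beside 8.68% of 8408 genes, and over 10 CPM per kb 0 of 12, beside 2.21% of 5565 genes. In HDAC1-E63R the counts were 13 of 38, 5 of 18 and 2 of 12, beside 10.1%, 4.33% and 1.01% of all genes, the last 2 members being *Col4a1* and *Col4a2*. Low genes can enter the test through the treated group alone, and of the 31 genes called in HDAC1-Y48E 2 (*Col24a1* and *Col9a1*) needed that group to pass the filter, while 15 passed its cutoff of 0.987 CPM in every untreated HDAC1-Y48E library.

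**Figure D2:**
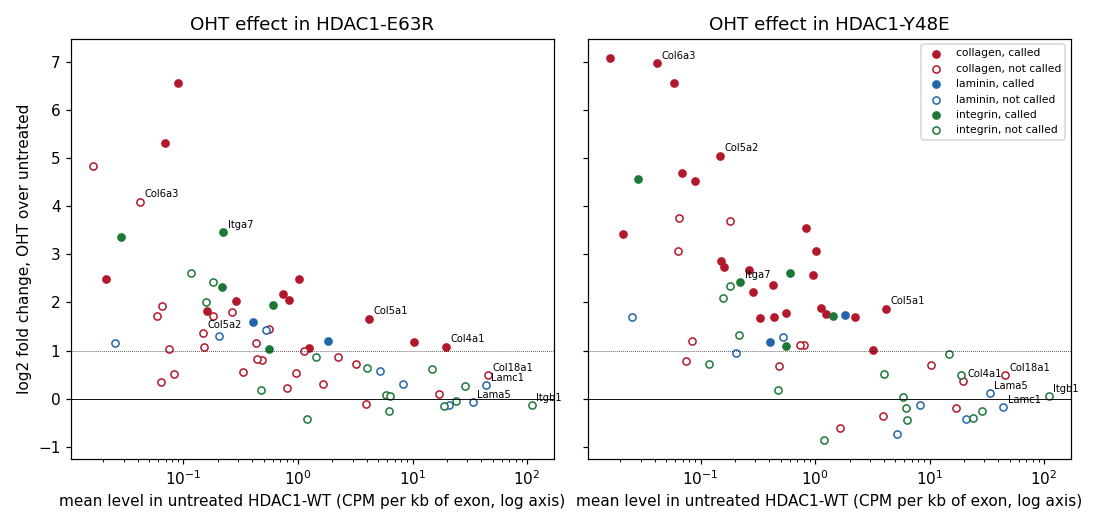
Log2 fold change with OHT (y axis) in HDAC1-E63R (left) and HDAC1-Y48E (right) against the mean level in untreated HDAC1-WT (CPM per kb of exon, log axis) for the tested members reported here; filled points are called. Called points lie toward the left, and in HDAC1-Y48E none of the 12 members above 10 CPM per kb is called. Fitted changes of members listed at 0 before OHT (*Col6a3* and *Col24a1* in HDAC1-Y48E, *Col9a1* and *Col24a1* in HDAC1-E63R) depend on the small count added in the fit.

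Of 10 tested fibrillar collagens 8 rose in HDAC1-Y48E, beside 10.8% of all genes, and 4 in HDAC1-E63R, beside 4.74% (3 without the library that stood apart). No fibrillar gene was called in the direct test of HDAC1-Y48E against HDAC1-E63R over all libraries. Their summed level went from 6.62 ± 0.88 to 27.8 ± 1.37 CPM per kb with OHT in HDAC1-Y48E and from 6.18 ± 1.40 to 16.5 ± 1.07 CPM per kb in HDAC1-E63R. In HDAC1-WT it was 10.6 ± 0.53 and 14.7 ± 1.13 CPM per kb. The untreated sums of both mutants thus lay below that of HDAC1-WT, and the treated ones above the untreated HDAC1-WT sum. The treated HDAC1-WT libraries summed to 13.5 to 15.8 CPM per kb. Those of treated HDAC1-E63R overlapped with them, at 15.4 to 17.5 CPM per kb, and those of treated HDAC1-Y48E lay above, at 26.2 to 28.9 CPM per kb.

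*Col1a1* encodes the alpha1 chain of collagen I, the main fibre of bone, tendon and skin. It read 8.56, 5.71 and 6.0 CPM in untreated and 5.87, 10.6 and 5.21 CPM in OHT-treated HDAC1-WT, 2.4, 3.84 and 2.29 and 14.2, 16 and 17.8 CPM in HDAC1-E63R, and 5.83, 2.16 and 3.02 and 28.2, 34.5 and 30.1 CPM in HDAC1-Y48E. The treated libraries of both mutants lay above all other libraries. The change was 5.63-fold in HDAC1-E63R (log2 fold change 2.49, SE 0.32, adjusted p = 8.29e-06) and 8.4-fold in HDAC1-Y48E (log2 fold change 3.07, SE 0.32, adjusted p = 7.99e-08). Without the outlying library the HDAC1-E63R value was 2.37 with adjusted p = 1.33e-07. Its partner chain *Col1a2* was low and scattered, at 1.08 to 4.18 CPM in untreated and 3.06 to 4.72 CPM in treated HDAC1-Y48E, and was not called (log2 fold change 0.79, SE 1.00, adjusted p = 0.548).

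Collagens V and XI are the minor fibrillar collagens that seed fibres. *Col5a1*, the most abundant fibrillar gene, read 22, 21.6 and 14.3 CPM before and 54.6, 67.1 and 61.7 CPM after OHT in HDAC1-E63R, and 26.8, 24.6 and 25.4 and 86.3, 96.3 and 98.2 CPM in HDAC1-Y48E. The HDAC1-WT values were 36.5, 35.6 and 33.2 and 50.2, 46.4 and 45.1 CPM. No untreated library of a mutant overlapped with a treated one, and the untreated mutant libraries were all below the HDAC1-WT ones. It rose 3.16-fold in HDAC1-E63R (log2 fold change 1.66, SE 0.14, adjusted p = 3.64e-08, 1.48 with adjusted p = 8.22e-13 without the outlying library) and 3.65-fold in HDAC1-Y48E (log2 fold change 1.87, SE 0.14, adjusted p = 6.54e-10).

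*Col11a1* was lower in the untreated mutants, at 3.51, 3.61 and 0.343 CPM in HDAC1-E63R and 3.52, 0.569 and 3.34 CPM in HDAC1-Y48E, than in untreated HDAC1-WT at 11.5, 10.1 and 10.2 CPM. OHT brought it to 10.6, 10.1 and 10.9 CPM in HDAC1-E63R, close to the untreated HDAC1-WT values, and to 27.5, 29.7 and 30.4 CPM in HDAC1-Y48E, where it passed the OHT-treated HDAC1-WT values of 23.6, 23.9 and 23.1 CPM. The log2 fold changes were 2.05 with adjusted p = 9.02e-04 and 3.55 with adjusted p = 4.38e-07, the first 1.56 with adjusted p = 4.57e-05 without the outlying library. HDAC1-WT also read higher with OHT, with groups that did not overlap, but did not pass the test (log2 fold change 1.15, SE 0.35, adjusted p = 0.198).

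*Col5a2* was almost silent in untreated HDAC1-Y48E, at 0, 0 and 0.969 CPM (9 counts in all), and reached 11.6, 10.3 and 11.9 CPM with OHT (log2 fold change 5.05, SE 0.83, adjusted p = 3.93e-05). In HDAC1-E63R it stayed at 1.14 to 1.66 CPM and was not called (log2 fold change 1.37, SE 0.81, adjusted p = 0.231, 1.04 with adjusted p = 0.336 without the outlying library). *Col24a1* had no count in any untreated HDAC1-Y48E library and 2.21, 0.907 and 1.8 CPM after OHT, at least 4.94-fold higher against a floor of 3 counts per library (adjusted p = 0.00353), a call that held in 1 of 6 fits with 1 library left out. *Col2a1*, the cartilage collagen, rose 2.06-fold in HDAC1-E63R (log2 fold change 1.05, SE 0.23, adjusted p = 0.00204) and 3.39-fold in HDAC1-Y48E (log2 fold change 1.76, SE 0.24, adjusted p = 3.01e-06), and its HDAC1-E63R change without the outlying library was 0.86 with adjusted p = 0.00403, under 2-fold. *Col5a3* and *Col27a1* rose in HDAC1-Y48E, with log2 fold changes of 1.71 with adjusted p = 1.89e-06 and 1.67 with adjusted p = 9.59e-05. *Col5a3* also read higher with OHT in HDAC1-WT, with groups that did not overlap, but was not called there. It read 14.6, 16.9 and 14.6 CPM untreated and 31.6, 24.4 and 24.3 CPM treated in HDAC1-WT. Its treated mean was 26.8 CPM in HDAC1-WT and 25.2 CPM in HDAC1-Y48E.

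Collagen IV is the network of the basement membrane, and its 2 main genes *Col4a1* and *Col4a2* lie head to head on chromosome 8 (*Col4a1* on the minus strand, *Col4a2* on the plus strand), with annotated start sites at 11312826 and 11312805 and so 22 bases of overlap at their 5′ ends. Their promoter windows from RefSeq on GRCm38.p6 (mm10), 250 bases before to 50 after each start, share 78 bases. They are shown, each on its own gene's strand, because both genes read higher with OHT in both mutant lines. The capitals mark matches on either strand to the CCAAT motif or to the GC box, which is spelled GGGCGG. The TATA box, searched as TATAAA, was not found in either window. The same holds for the AP-1 motif, searched as TGANTCA.
*Col4a1*, chr8:11312777-11313076, minus strand: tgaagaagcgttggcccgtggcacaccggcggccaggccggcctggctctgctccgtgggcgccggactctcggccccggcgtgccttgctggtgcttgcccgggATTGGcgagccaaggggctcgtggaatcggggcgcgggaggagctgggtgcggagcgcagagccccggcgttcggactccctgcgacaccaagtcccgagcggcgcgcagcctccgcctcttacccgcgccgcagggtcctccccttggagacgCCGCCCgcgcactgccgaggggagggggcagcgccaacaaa
*Col4a2*, chr8:11312555-11312854, plus strand: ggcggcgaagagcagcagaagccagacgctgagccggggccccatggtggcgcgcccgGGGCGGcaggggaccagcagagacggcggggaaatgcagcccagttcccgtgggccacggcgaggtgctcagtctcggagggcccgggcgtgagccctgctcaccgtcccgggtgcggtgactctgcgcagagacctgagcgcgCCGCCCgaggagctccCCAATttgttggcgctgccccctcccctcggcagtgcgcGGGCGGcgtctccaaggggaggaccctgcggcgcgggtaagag
These windows were rich in CG dinucleotides, with 37 for *Col4a1* and 33 for *Col4a2*, against a median of 11.5 over the 58 members with a window and 7 over all 27025 symbols with one. Of all 32851 windows 37.4% held the CCAAT motif, 35.7% the GC box, 13.6% the TATA box and 7.81% the AP-1 motif, and of the 64 windows of members 26.6%, 54.7%, 7.81% and 6.25%.

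*Col4a1* stood at 146, 144 and 148 CPM in untreated HDAC1-WT and at 164, 143 and 152 CPM in untreated HDAC1-Y48E, but at 68.5, 86 and 45.3 CPM in untreated HDAC1-E63R. With OHT it was 147, 149 and 120.0 CPM in HDAC1-WT, 141, 143 and 138 CPM in HDAC1-E63R and 211, 189 and 189 CPM in HDAC1-Y48E. The untreated HDAC1-E63R libraries were the lowest of all, and after OHT that line read near HDAC1-WT. The rise was 2.12-fold in HDAC1-E63R (log2 fold change 1.08, SE 0.15, adjusted p = 1.85e-05), 0.87 with adjusted p = 7.36e-10 and so under 2-fold without the outlying library, and 1.29-fold in HDAC1-Y48E (log2 fold change 0.36, SE 0.15, adjusted p = 0.0489), which was not called.

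*Col4a2* behaved alike: 36.2, 40.9 and 25.6 CPM before and 82.8, 80.5 and 70.4 CPM after OHT in HDAC1-E63R (log2 fold change 1.18, SE 0.14, adjusted p = 3.93e-06), 1.02 with adjusted p = 2.46e-09 without the outlying library. In HDAC1-Y48E it went from 77.4, 63.9 and 75 to 114, 113 and 123 CPM (log2 fold change 0.70, SE 0.14, adjusted p = 3.62e-04), under 2-fold. Its HDAC1-WT values were 74.5, 65.4 and 65.4 CPM untreated and 69.7, 59.5 and 53.2 CPM with OHT. Per kb, the *Col4a1* to *Col4a2* ratio had a median of 1.77 and stayed between 1.36 and 2.23 over all 18 libraries, a range far narrower than that of either gene. Within that range it was lower after OHT in HDAC1-Y48E, at 1.80 to 1.98 untreated and 1.36 to 1.64 treated, where *Col4a2* rose more than *Col4a1*.

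The other head-to-head collagen IV pairs encode the chains of specialised basement membranes, such as that of the kidney glomerulus. *Col4a5*, whose start lies 1308 bases from that of *Col4a6* on the X chromosome, read 2.09, 0.911 and 0.538 CPM before and 8.33, 4.53 and 8.37 CPM after OHT in HDAC1-Y48E (log2 fold change 2.57, SE 0.55, adjusted p = 6.85e-04), near the 4.84 to 8.88 CPM of untreated HDAC1-WT. *Col4a6* stayed under 1 CPM in every mutant library and was not called in HDAC1-Y48E (log2 fold change 3.69, SE 1.45, adjusted p = 0.0432). *Col4a4* had 61 counts over all libraries and was not tested, and *Col4a3* had 17.

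Collagen VI, a microfibril collagen of muscle and connective tissue, had 5 of 6 genes rising in HDAC1-Y48E, beside 10.8% of all genes. The median log2 change was 2.91 (2.70 with *Col6a3* set at its bound). In HDAC1-E63R 1 of 6 rose, beside 4.74% of all genes, and none without the outlying library. All 6 lay under 1 CPM per kb in untreated HDAC1-WT, where 25.2% of all tested genes rose in HDAC1-Y48E and 10.1% in HDAC1-E63R. *Col6a1* and *Col6a2*, 2 neighbouring genes on chromosome 10, are the constant chains. *Col6a2* read 1.3, 1.09 and 1.6 CPM in untreated HDAC1-WT, 1.48, 2.94 and 0.572 and 4.8, 6.38 and 6.65 CPM in HDAC1-E63R, and 2.42, 1.02 and 1.18 and 10.04, 9.7 and 11.3 CPM in HDAC1-Y48E. It rose 6.66-fold in HDAC1-Y48E (log2 fold change 2.74, SE 0.44, adjusted p = 2.98e-05) and 3.56-fold in HDAC1-E63R (log2 fold change 1.83, SE 0.43, adjusted p = 0.00355), the latter 1.44 with adjusted p = 0.0104 without the outlying library. *Col6a1* went from 1.43, 0.797 and 0.862 to 6.52, 5.62 and 7.74 CPM in HDAC1-Y48E (log2 fold change 2.67, SE 0.56, adjusted p = 5.02e-04).

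*Col6a3* and *Col6a5*, chains that join *Col6a1* and *Col6a2* in the trimer, were near silent in untreated HDAC1-Y48E. *Col6a3* had no count in untreated HDAC1-Y48E and 2.11, 1.18 and 1.26 CPM after OHT, at least 4.57-fold higher (adjusted p = 0.00132). *Col6a5* had 1 count in the untreated HDAC1-Y48E libraries and 148 in the treated ones, at 3.71, 5.08 and 4.95 CPM, a ratio of 125 with a 95% counting interval of 22.1 to 4978 (adjusted p = 2.27e-06). In HDAC1-E63R *Col6a5* was already at 1.85, 1.81 and 1.14 CPM untreated and reached 4.3, 4.67 and 6.95 CPM, and was not called (log2 fold change 1.72, SE 0.53, adjusted p = 0.0201, 1.53 with adjusted p = 0.0504 without the outlying library). *Col6a5* and *Col6a6* share 572 bases of 96.9% identity, so that counts may be split between them. *Col6a4* rose in HDAC1-Y48E (log2 fold change 1.79, SE 0.46, adjusted p = 0.00307) although its treated libraries were uneven, at 11.5, 7.8 and 4.59 CPM.

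Of the remaining collagens, *Col7a1*, the anchoring fibril collagen that ties skin basement membrane to the dermis, went from 4.53, 8.02 and 5.72 to 25.9, 25.7 and 23.1 CPM in HDAC1-E63R and from 5.17, 4.67 and 2.48 to 15.6, 21.5 and 19.97 CPM in HDAC1-Y48E, while HDAC1-WT stayed at 2.45 to 6.53 CPM. Its changes were 4.1-fold (log2 fold change 2.04, SE 0.29, adjusted p = 2.82e-05) and 4.63-fold (log2 fold change 2.21, SE 0.30, adjusted p = 4.51e-06), and the former was 2.0 with adjusted p = 8.65e-07 without the outlying library. *Col15a1*, a relative of *Col18a1*, had 1 count in untreated HDAC1-E63R and 62 after OHT, a ratio of 53.7 with a 95% counting interval of 9.29 to 2155 (fitted log2 change 4.91 with adjusted p = 0.00576 without the outlying library), and went from 0.440, 0 and 0 to 5.02, 3.45 and 3.78 CPM in HDAC1-Y48E (log2 fold change 4.68, SE 1.13, adjusted p = 0.00189). In HDAC1-E63R 1 of its 3 treated libraries was low, at 2.65, 0.381 and 2.54 CPM. *Col18a1* itself moved by 0.48 with adjusted p = 0.00297 and 0.48 with adjusted p = 0.00133 on the log2 scale in HDAC1-E63R and HDAC1-Y48E, which passed the test on adjusted p but not the fold limit, and by -0.04 with adjusted p = 0.961 in HDAC1-WT.

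*Col25a1*, a membrane collagen of neurons, rose in both mutants, from 0.550, 0.228 and 0.862 to 7.63, 4.44 and 5.85 CPM in HDAC1-Y48E (log2 fold change 3.41, SE 0.66, adjusted p = 2.57e-04) and with a log2 fold change of 2.48 with adjusted p = 0.00887 in HDAC1-E63R, which was 2.29 with adjusted p = 0.0193 without the outlying library. The fibril-associated *Col22a1* rose in HDAC1-Y48E (log2 fold change 1.89, SE 0.26, adjusted p = 3.51e-06), and was not called in HDAC1-E63R (log2 fold change 1.00, SE 0.26, adjusted p = 0.00676, 0.93 with adjusted p = 0.00929 without the outlying library). *Col9a1* had no count in untreated HDAC1-E63R and 0.497, 0.476 and 2.45 CPM after OHT, at least 3.56-fold higher, resting mainly on 1 library, and rose from 2 to 62 counts in HDAC1-Y48E, a ratio of 26.2 (95% counting interval 6.96 to 221). The HDAC1-E63R calls of *Col9a1* and *Col25a1* were lost whichever 1 of the 6 HDAC1-E63R libraries was left out. *Col26a1* was called in HDAC1-E63R (log2 fold change 2.17, SE 0.37, adjusted p = 2.10e-04, 2.06 with adjusted p = 1.00e-04 without the outlying library) and missed the limit in HDAC1-Y48E (log2 fold change 1.11, SE 0.34, adjusted p = 0.0111). In HDAC1-Y48E *Col8a2*, *Col9a3*, *Col16a1* and *Col23a1* also rose, by 2.36, 1.02, 1.69 and 2.87 on the log2 scale. *Col9a3* also read higher with OHT in HDAC1-WT, with groups that did not overlap, but was not called there. Its mean went from 12.3 to 19.4 CPM in HDAC1-WT and from 14.9 to 30.2 CPM in HDAC1-Y48E. The *Col8a2* call held in 1 of 6 and the *Col9a3* call in 2 of 6 fits with 1 library left out, against 4 of 6 for *Col16a1* and 6 of 6 for *Col23a1*. *Col9a2*, one of the most abundant collagens in untreated HDAC1-WT, showed no called change with OHT in either mutant line (0.09 with adjusted p = 0.761 and -0.19 with adjusted p = 0.428).

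**Figure D3:**
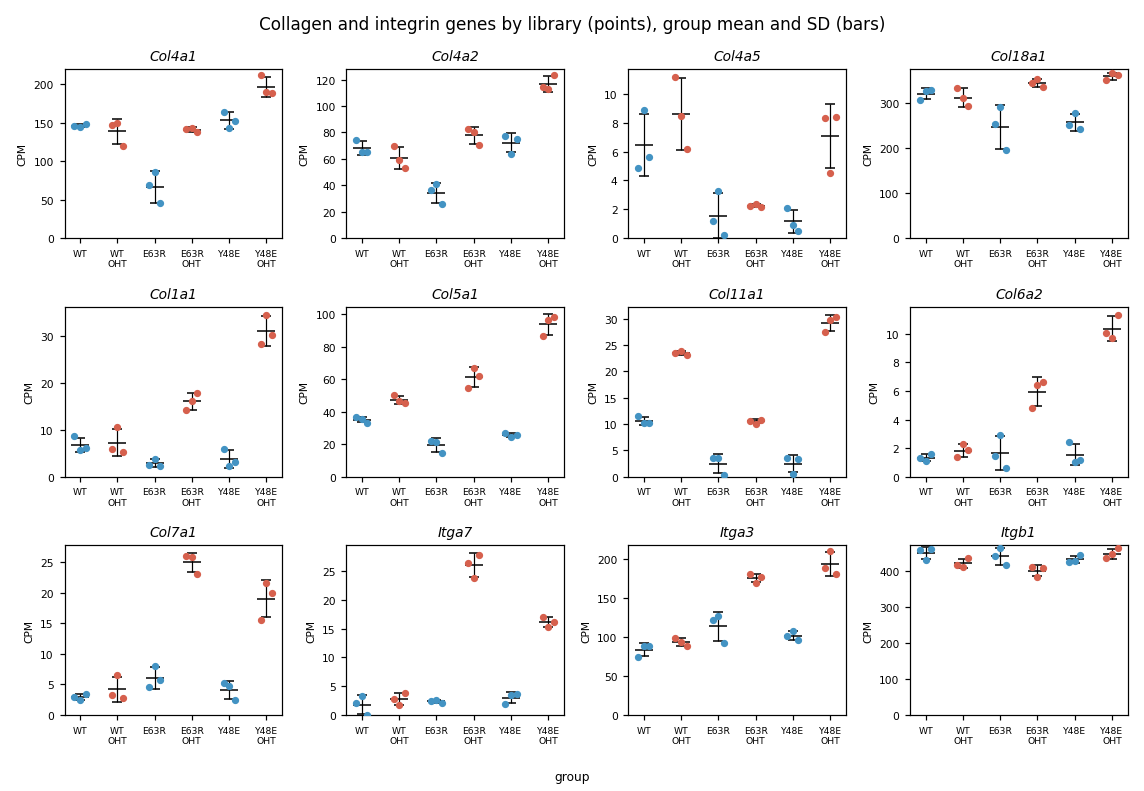
CPM of 9 collagen and 3 integrin genes in each library (blue points untreated, red points OHT) with the group mean and SD (black bars), in 6 groups per panel, each axis from 0. *Col4a1* and *Col4a2* show low values only in untreated E63R, *Col1a1*, *Col5a1* and *Col6a2* are highest in Y48E with OHT, *Itga7* is highest in E63R with OHT, and *Itgb1* is level.

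Among the laminins *Lama3* and *Lamb3* rose with OHT in both mutant lines, and the chains of laminin-511 and laminin-111 were not called. The *Lamb3* call in HDAC1-E63R was lost when only the HDAC1-E63R libraries were fitted. These 4 chains summed to 99.6 ± 5.89 before and 88.6 ± 2.76 CPM per kb after OHT in HDAC1-Y48E and to 78.5 ± 31.6 and 83.8 ± 3.39 CPM per kb in HDAC1-E63R. In untreated HDAC1-E63R the 3 libraries read 89.2, 103 and 43.0 CPM per kb, the last being replicate 3.

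*Lamb3*, the beta3 chain, read 12.3, 9.88 and 13.8 and 14.3, 14.6 and 9.63 CPM in HDAC1-WT, 4.16, 8.7 and 6.98 and 16.9, 14.3 and 13.7 CPM in HDAC1-E63R, and 7.48, 6.26 and 8.62 and 25.2, 23.5 and 26.2 CPM in HDAC1-Y48E. The treated HDAC1-Y48E libraries were above all others. It rose 2.28-fold (log2 fold change 1.19, SE 0.24, adjusted p = 8.80e-04, 1.24 with adjusted p = 2.07e-04 without the outlying library) and 3.34-fold (log2 fold change 1.74, SE 0.24, adjusted p = 3.52e-06). *Lama3*, the alpha3 chain, rose 3.02-fold in HDAC1-E63R (log2 fold change 1.6, SE 0.27, adjusted p = 1.80e-04, 1.66 with adjusted p = 3.23e-05 without the outlying library), from 4.34, 4.97 and 5.26 to 13.6, 16.8 and 13.7 CPM. In HDAC1-Y48E it rose 2.27-fold (log2 fold change 1.18, SE 0.27, adjusted p = 0.00111), from 5.72, 7.97 and 3.88 to 11.4, 12.1 and 16.3 CPM. In HDAC1-WT it read higher with OHT too, at 4.19, 5.26 and 3.5 and then 5.78, 8.89 and 9.18 CPM, and did not pass the test (log2 fold change 0.88, SE 0.27, adjusted p = 0.213).

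*Lamb1*, the beta chain of laminin-511 and laminin-111, was the contrast to *Lamb3*. It stood at 210.0, 212 and 201 and 173, 159.6 and 125 CPM in HDAC1-WT, 158, 189 and 114 and 145, 138 and 135 CPM in HDAC1-E63R, and 197, 208 and 191 and 146, 148 and 149.6 CPM in HDAC1-Y48E. Treated libraries lay below untreated ones in HDAC1-WT and HDAC1-Y48E, and overlapped with them in HDAC1-E63R. It was called in none of the lines (-0.44 with adjusted p = 0.193, -0.14 with adjusted p = 0.489 and -0.42 with adjusted p = 0.0139 on the log2 scale). The promoter windows of the 2 beta chain genes, also from RefSeq on GRCm38.p6, are shown side by side, with the same motifs in capitals. *Lamb3* has another window in the table, not printed here.
*Lamb1*, chr12:31265043-31265342, plus strand: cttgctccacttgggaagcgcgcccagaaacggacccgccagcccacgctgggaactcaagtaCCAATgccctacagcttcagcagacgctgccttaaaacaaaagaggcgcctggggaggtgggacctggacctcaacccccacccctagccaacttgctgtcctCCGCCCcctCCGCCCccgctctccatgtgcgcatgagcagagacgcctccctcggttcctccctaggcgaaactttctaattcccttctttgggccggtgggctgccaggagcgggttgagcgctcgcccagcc
*Lamb3*, chr1:193301744-193302043, plus strand: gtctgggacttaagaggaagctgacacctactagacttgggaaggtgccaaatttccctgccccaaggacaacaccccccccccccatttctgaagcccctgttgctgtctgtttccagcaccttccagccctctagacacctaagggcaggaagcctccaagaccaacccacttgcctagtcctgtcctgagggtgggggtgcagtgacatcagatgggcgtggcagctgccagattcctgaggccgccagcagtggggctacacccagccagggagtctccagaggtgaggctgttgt
The *Lamb1* window held 18 CG dinucleotides, 1 CCAAT match and 2 GC box matches, and the *Lamb3* window 2 CG dinucleotides and none of the 4 motifs. Over the members with a window, a median of 10.5 CG dinucleotides was found for the 22 called in HDAC1-Y48E and of 13.5 for the 26 tested but not called up there.

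*Lama5*, *Lamc1* and *Lama1* completed the ESC laminins. *Lama5* read 365, 383 and 314 and 358, 389 and 398 CPM in HDAC1-Y48E (log2 fold change 0.11, SE 0.19, adjusted p = 0.676), and *Lamc1* 297, 353 and 321 and 282, 294 and 282 CPM (log2 fold change -0.18, SE 0.23, adjusted p = 0.554). Untreated HDAC1-E63R showed how far 1 library could move such a gene, with *Lamc1* at 309, 324 and 103 CPM and *Lama5* at 359.8, 455 and 192 CPM, the last value of each from replicate 3. *Lama1* was highest in untreated HDAC1-Y48E, at 88, 88.1 and 95.4 CPM, and read 50.9, 59.1 and 52.3 CPM there with OHT (log2 fold change -0.74, SE 0.19, adjusted p = 0.00332), a difference under 2-fold, beside 45.5 to 52.7 CPM in untreated HDAC1-WT. In HDAC1-E63R it was 41.2, 51.1 and 20.8 CPM untreated and 61.4, 52.6 and 53.8 CPM treated (log2 fold change 0.57, SE 0.20, adjusted p = 0.0361). *Lama4*, an alpha chain of vessels, was low in both untreated mutants and missed the limit with OHT in both (1.42 with adjusted p = 0.0124 and 1.28 with adjusted p = 0.0108). *Lama2*, *Lamb2* and *Lamc3* were not called in any OHT comparison.

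**Figure D4:**
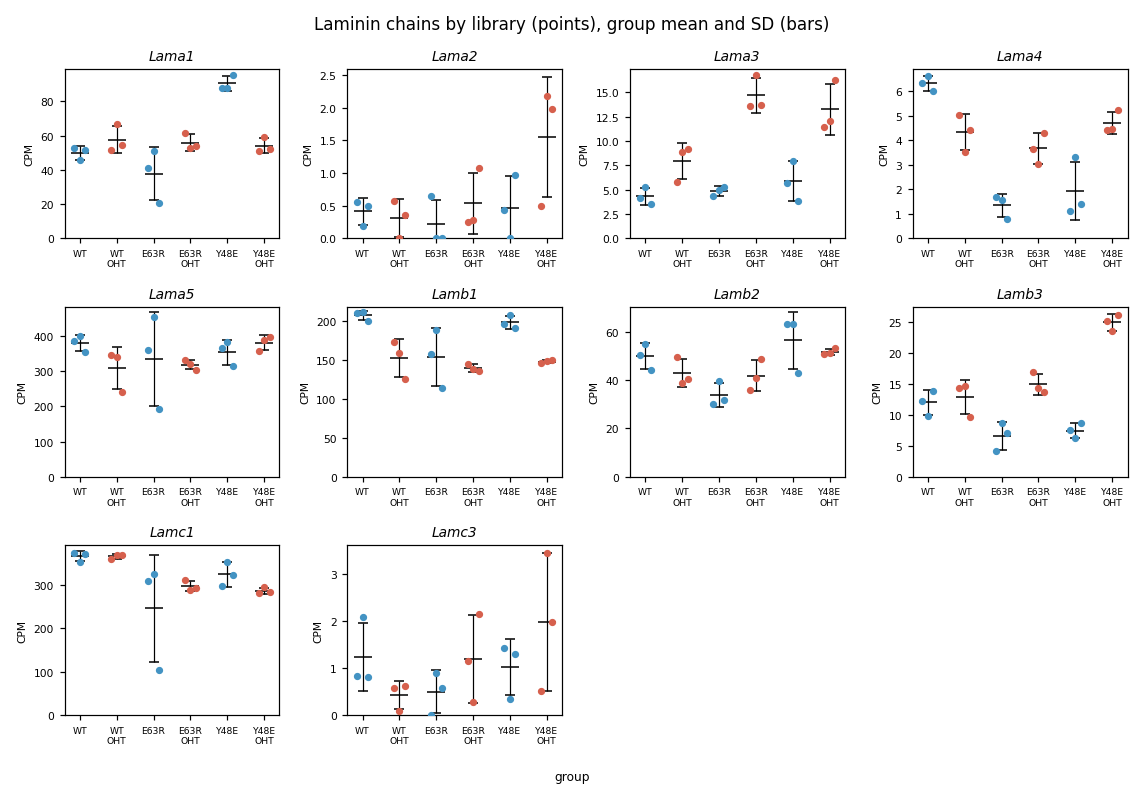
CPM of laminin chain genes in each library (blue points untreated, red points OHT) with the group mean and SD (black bars), each axis from 0. *Lama3* and *Lamb3* are higher after OHT in E63R and Y48E, whereas *Lama5* and *Lamc1* keep overlapping or close levels and their low point in untreated E63R is replicate 3.

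Integrin beta subunits were not called with OHT in any of the 3 lines, while 5 of the 15 tested alpha subunits rose in each mutant (10.8% of all genes in HDAC1-Y48E and 4.74% in HDAC1-E63R), *Itga1*, *Itga7*, *Itga9* and *Itgal* in both. In HDAC1-E63R the *Itga1* and *Itga8* calls each held in 3 of 6 fits with 1 library left out and the *Itga9* call in 2 of 6. *Itgb1* read 456, 429 and 461 and 415, 410.4 and 434 CPM in HDAC1-WT, 439.9, 462 and 416 and 409.6, 381 and 406 CPM in HDAC1-E63R, and 425, 427 and 442 and 434, 445 and 461 CPM in HDAC1-Y48E. All 18 libraries thus lay within 381 to 462 CPM, and its log2 changes with OHT were -0.09, -0.14 and 0.05, each with an SE of 0.08. *Itgb5*, a vitronectin receptor subunit, passed on adjusted p alone in HDAC1-Y48E (log2 fold change 0.50, SE 0.10, adjusted p = 5.10e-04).

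*Itga7*, the laminin receptor alpha chain of muscle, was low in all untreated lines. It read 2.05, 3.35 and 0 and 2.7, 1.72 and 3.8 CPM in HDAC1-WT and 2.4, 2.6 and 2.06 CPM in untreated HDAC1-E63R, which OHT took to 26.4, 23.8 and 27.9 CPM. In HDAC1-Y48E it went from 1.87, 3.53 and 3.66 to 17.1, 15.3 and 16.2 CPM. Treated mutant libraries all lay above every other library. The rises were 11-fold (log2 fold change 3.46, SE 0.47, adjusted p = 1.64e-05, 3.38 with adjusted p = 2.56e-08 without the outlying library) and 5.34-fold (log2 fold change 2.42, SE 0.46, adjusted p = 2.04e-04).

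The other laminin receptor alpha chains are *Itga3* and *Itga6*. *Itga3*, a receptor for laminin-332 and laminin-511, was higher with OHT by less than 2-fold, at 180.0, 169.6 and 176 CPM in HDAC1-E63R (log2 fold change 0.63, SE 0.11, adjusted p = 3.74e-04, 0.50 with adjusted p = 1.42e-05 without the outlying library) and 188, 211 and 181 CPM in HDAC1-Y48E (log2 fold change 0.93, SE 0.11, adjusted p = 1.09e-06). *Itga6* was at 177, 183 and 205 CPM before and 159, 152 and 161 CPM after OHT in HDAC1-Y48E, not called (log2 fold change -0.26, SE 0.14, adjusted p = 0.136). As a share of the summed *Itga3*, *Itga6* and *Itga7* level per kb, *Itga3* held 33.7% ± 2.02 in untreated HDAC1-WT, 45.6% ± 3.15 in untreated and 63.4% ± 2.52 in treated HDAC1-Y48E, and 48.8% ± 3.19 and 52.0% ± 1.54 in HDAC1-E63R.

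*Itga1*, the collagen IV and laminin receptor alpha chain, was under 1 CPM in all untreated and all HDAC1-WT libraries and read 4.55, 5.24 and 3.52 CPM in treated HDAC1-E63R (log2 fold change 3.36, SE 0.78, adjusted p = 0.00299, 4.1 with adjusted p = 4.59e-04 without the outlying library) and 2.31, 3.45 and 5.4 CPM in treated HDAC1-Y48E (log2 fold change 4.56, SE 0.90, adjusted p = 2.92e-04). The neighbouring collagen receptor gene *Itga2*, about 20995 bases away on chromosome 13, had 24 counts in all. *Itgal*, the alpha chain of the leukocyte integrin LFA-1, rose from 1.76, 2.96 and 0.862 to 10.5, 13.1 and 10.3 CPM in HDAC1-Y48E (log2 fold change 2.6, SE 0.41, adjusted p = 2.35e-05) and by 1.94 with adjusted p = 0.00129 on the log2 scale in HDAC1-E63R (1.72 with adjusted p = 0.00140 without the outlying library). Its beta partner *Itgb2* had 84 counts in all and was not tested.

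*Itga9*, a receptor chain for tenascin and osteopontin, rose in both mutants (1.03 with adjusted p = 0.00490 and 1.1 with adjusted p = 0.00213), was 0.84 with adjusted p = 0.0115 in HDAC1-E63R without the outlying library, and moved alike in HDAC1-WT without passing the test (log2 fold change 1.26, SE 0.27, adjusted p = 0.0525). *Itga2b*, the platelet alphaIIb chain, rose in HDAC1-Y48E from 4.51, 2.85 and 3.88 to 12.6, 9.52 and 14.8 CPM (log2 fold change 1.72, SE 0.27, adjusted p = 2.09e-05), and *Itga8*, a nephronectin receptor chain, in HDAC1-E63R (log2 fold change 2.32, SE 0.57, adjusted p = 0.00445, 1.87 with adjusted p = 0.00902 without the outlying library). *Itga5* was lower after OHT in HDAC1-Y48E by under 2-fold, from 137, 140.3 and 125 to 107, 101 and 95.7 CPM (log2 fold change -0.41, SE 0.10, adjusted p = 0.00233). *Itgav*, *Itga4* and *Itgae* were not called. Counts of *Itga6* are uncertain because it shares near-identical stretches with 7 other annotated genes. Those of *Itga4* are uncertain because its exons overlap those of *Cerkl* on the opposite strand over 1124 bases. Use of strand in counting is not given in the sources used here.

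**Figure D5:**
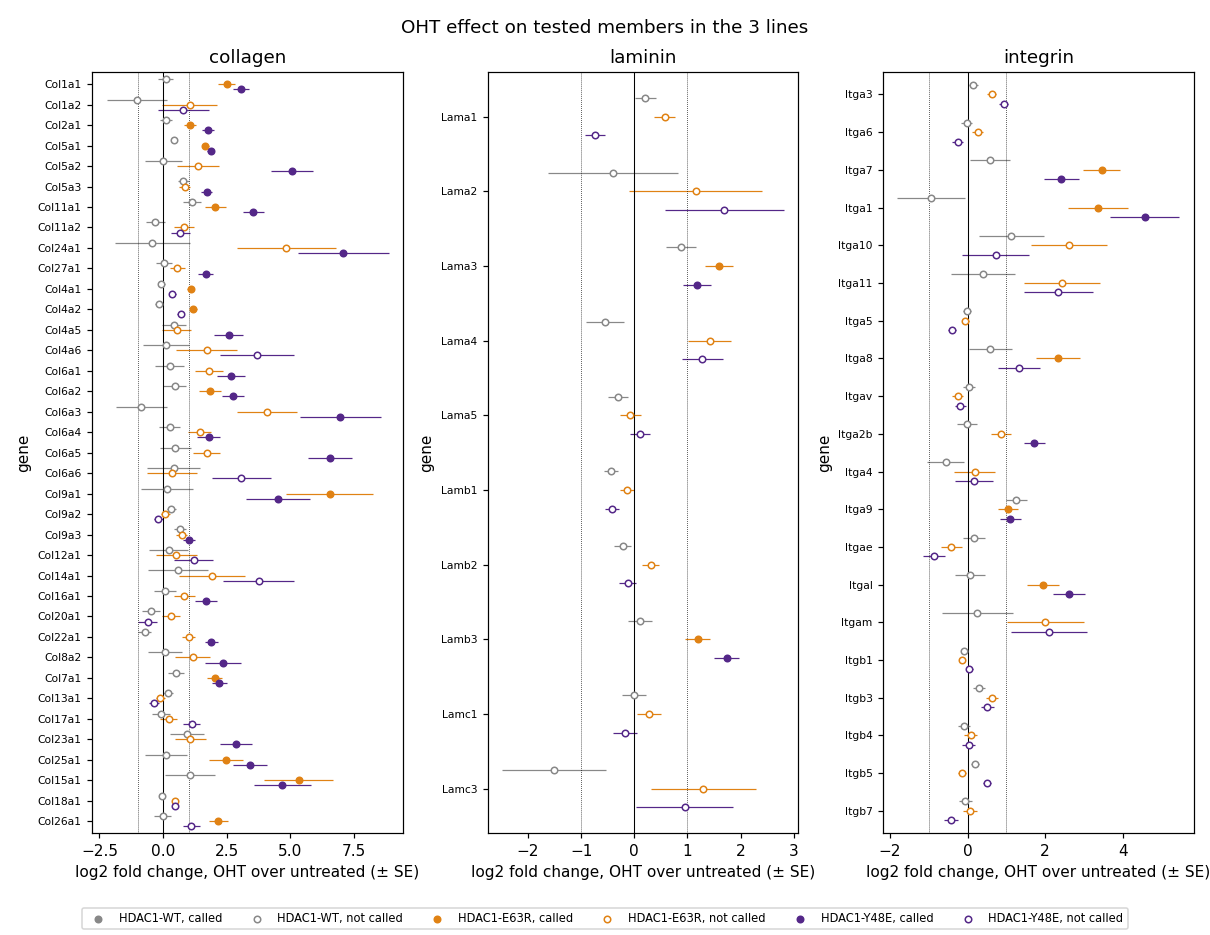
Log2 fold change with OHT (x axis, ± SE) of tested collagen, laminin and integrin genes in HDAC1-WT (grey), HDAC1-E63R (orange) and HDAC1-Y48E (purple); filled points are called and dotted lines mark a 2-fold change. No grey point is filled, filled orange and purple points are all to the right of the 2-fold line, and wide bars mark genes with few counts.

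The OHT effects of the mutants were set against that of HDAC1-WT in 1 fit over all genes. The effect was larger in HDAC1-Y48E than in HDAC1-WT for 15 members and smaller for none (4.65% and 3.97% over all genes), and larger in HDAC1-E63R than in HDAC1-WT for 6 and smaller for none (1.25% and 0.436% over all genes). *Col1a1*, *Col5a1* and *Col22a1* were among those called in both, and *Col4a1* and *Col4a2* for HDAC1-E63R alone; the 2 tests share the HDAC1-WT libraries. Without replicate 3 of untreated HDAC1-E63R the *Col4a1* difference was 0.94 with adjusted p = 2.64e-07, under 2-fold and no longer called, and that of *Col4a2* was 1.19 with adjusted p = 1.49e-07. The *Col22a1* difference for HDAC1-E63R was called in 4 of 12 fits with 1 library left out. For *Col5a1* the difference was 1.23 (adjusted p = 3.98e-04, 1.06 with adjusted p = 7.01e-06 without the outlying library) on the log2 scale for HDAC1-E63R and 1.44 (adjusted p = 1.06e-05) for HDAC1-Y48E. Many members called within a mutant line did not pass this test of the difference, since 20 were called within HDAC1-E63R and 31 within HDAC1-Y48E. *Lama3*, *Itga7* and *Itga9* were among them (adjusted p = 0.304, 0.0159 and 0.799 for HDAC1-E63R, and 0.627, 0.0625 and 0.821 for HDAC1-Y48E). So were *Col7a1*, *Col11a1*, *Lamb3*, *Itga1* and *Itgal* for HDAC1-E63R. For HDAC1-Y48E they included *Col5a3*, *Col6a1*, *Col6a2*, *Col9a3*, *Col15a1*, *Col23a1* and *Col25a1*.

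Between the 2 mutants the OHT effect differed for 1 member, *Lama1*, whose change with OHT was lower in HDAC1-Y48E (log2 difference -1.31, SE 0.27, adjusted p = 0.00556), beside 0.319% of all genes with a larger and 0.99% with a smaller effect in HDAC1-Y48E. At an unadjusted p under 0.05 there were 10 members with a larger and 6 with a smaller effect, and DESeq2 called *Col6a5* in addition. Without replicate 3 of untreated HDAC1-E63R the *Lama1* difference was -1.03 with adjusted p = 6.63e-06, and *Col4a5*, *Col5a2*, *Col6a5* and *Col11a1* were also called, with larger effects in HDAC1-Y48E. The *Lama1* call was lost when any 1 of 9 other libraries was left out. Of the 20 members called in HDAC1-E63R, 16 (80%) were called in HDAC1-Y48E, which is 51.6% of the 31 called there. Over all genes the 720 called in both lines were 80.9% of those called in HDAC1-E63R and 35.5% of those called in HDAC1-Y48E. The first share of the members was thus near that of all genes.

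Before OHT the mutant lines already differed from HDAC1-WT, mostly toward lower matrix levels. Untreated HDAC1-E63R had 9 members lower and 1 higher than untreated HDAC1-WT (4.33% down and 3.32% up over all genes), or 8 and 2 without the outlying library, and untreated HDAC1-Y48E had 5 lower and none higher (2.95% down and 2.62% up). In the latter, 2 members were higher at an unadjusted p under 0.05 and DESeq2 called none. *Col4a5*, *Col11a1* and *Lama4* were lower in both mutants, in tests that share the HDAC1-WT libraries. The *Lama4* libraries read 6.33, 6.62 and 6.0 CPM in HDAC1-WT, 1.66, 1.58 and 0.801 CPM in HDAC1-E63R (log2 fold change -2.21, SE 0.40, adjusted p = 2.40e-04, -1.95 with adjusted p = 7.10e-04 without the outlying library) and 1.1, 3.3 and 1.4 CPM in HDAC1-Y48E (log2 fold change -1.71, SE 0.39, adjusted p = 0.00265).

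In untreated HDAC1-E63R *Col4a1* was 2.19-fold lower (log2 fold change -1.13, SE 0.15, adjusted p = 6.96e-06, -0.91 with adjusted p = 1.26e-10 without the outlying library). *Itgb3*, the beta subunit of the vitronectin receptor, was at 9.61, 12.4 and 10.1 CPM against 23.8, 22.8 and 23.7 CPM in HDAC1-WT (log2 fold change -1.13, SE 0.16, adjusted p = 1.58e-05, -1.09 with adjusted p = 1.23e-05 without the outlying library). In untreated HDAC1-Y48E *Itgb4*, the partner of alpha6 in hemidesmosomes, was at 18, 17.2 and 22.8 CPM against 43.3, 40.5 and 40.1 CPM (log2 fold change -1.09, SE 0.16, adjusted p = 2.84e-05), and *Itga2b* was lower too (log2 fold change -1.07, SE 0.27, adjusted p = 0.00643), a call that held in 1 of 6 fits with 1 library left out. *Col1a1*, *Col9a2* and *Col26a1* were also lower in HDAC1-E63R, by -1.25, -1.07 and -1.87 on the log2 scale (-1.12, -1.33 and -1.76 without the outlying library). *Itga9* was the one higher there (log2 fold change 1.16, SE 0.28, adjusted p = 0.00294, 1.36 with adjusted p = 1.05e-04 without the outlying library).

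The start and end points of these rises were also set against HDAC1-WT. Of the 20 members that rose in HDAC1-E63R, 9 had all 3 untreated libraries below all 6 HDAC1-WT libraries, and 11 had all 3 treated libraries above them. Of all 890 genes that rose in that line, 35.3% and 64.3% did so, and of all tested genes 13.3% and 20.6%. For HDAC1-Y48E the numbers were 8 and 26 of 31. Beside them, 22.8% and 82.8% of all 2030 genes that rose and 14.6% and 27.0% of all tested genes did so. The shares of the rising members (45.0% and 55.0% in HDAC1-E63R, 25.8% and 83.9% in HDAC1-Y48E) were thus near those of all rising genes in HDAC1-Y48E. The members above all HDAC1-WT libraries after OHT in both mutants included *Col1a1*, *Col5a1*, *Col6a2*, *Col7a1*, *Itga1*, *Itga7*, *Itgal* and *Lama3*. *Lamb3* was above them in HDAC1-Y48E and not in HDAC1-E63R.

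Genes that work with these families moved in both directions. Of 13 tested basement membrane and matrix partners, 3 rose and 2 fell in HDAC1-Y48E and 1 fell in HDAC1-E63R, or 2 without the outlying library (10.8% up and 5.84% down over all genes in HDAC1-Y48E, 4.74% and 1.18% in HDAC1-E63R). *Fn1*, fibronectin, and *Nid1*, the nidogen that links laminin to collagen IV, fell in HDAC1-Y48E (log2 fold change -1.67, SE 0.25, adjusted p = 1.10e-05 and log2 fold change -1.16, SE 0.18, adjusted p = 2.39e-05), and *Pxdn*, the peroxidasin that crosslinks collagen IV, rose (log2 fold change 1.12, SE 0.18, adjusted p = 4.40e-05), as did *Fras1* (log2 fold change 3.05, SE 0.56, adjusted p = 1.32e-04). *Smoc2*, the other that rose, had no count in untreated HDAC1-Y48E and was at least 6.74-fold higher after OHT, and the gene that fell in HDAC1-E63R was *Frem2* (log2 fold change -1.16, SE 0.24, adjusted p = 0.00103, -1.47 with adjusted p = 1.47e-08 without the outlying library).

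Of 25 tested collagen processing genes, 2 rose in both mutants and none fell. This was 8% beside 10.8% of all genes in HDAC1-Y48E and 4.74% in HDAC1-E63R. *Loxl4*, a lysyl oxidase that crosslinks collagen, had log2 fold changes of 4.29 with adjusted p = 1.93e-06 in HDAC1-E63R (3.76 without the outlying library) and 5.52 with adjusted p = 1.93e-08 in HDAC1-Y48E, and *Bmp1*, the procollagen C-proteinase, of 1.99 with adjusted p = 5.86e-06 (1.93 without it) and 2.19 with adjusted p = 4.55e-07. The other 23 tested were not called in either line. Of 24 integrin adaptors, 3 (12.5%) rose and 1 fell in HDAC1-Y48E, near the shares of all genes, and none in HDAC1-E63R. *Ilk*, the integrin-linked kinase, rose (log2 fold change 1.13, SE 0.14, adjusted p = 1.50e-06), as did *Zyx* and *Fermt1* (1.09 and 2.27), and *Lims2* fell (-1.98).

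Among 9 other matrix receptors, the syndecan genes *Sdc3* and *Sdc4* went apart in both mutants, the first rising and the second falling (1.72 with adjusted p = 8.53e-07 and -1.06 with adjusted p = 2.13e-05 in HDAC1-E63R, 2.54 with adjusted p = 4.62e-10 and -1.17 with adjusted p = 1.86e-06 in HDAC1-Y48E), and *Cd44*, the hyaluronan receptor, rose in HDAC1-Y48E (3.13 with adjusted p = 7.37e-05). Without the outlying library the HDAC1-E63R values were 1.47 for *Sdc3* and -0.90 for *Sdc4*, the latter under 2-fold. Of 15 tested matrix proteases and inhibitors, 2 rose and 3 fell in HDAC1-Y48E, and 1 rose and 1 fell in HDAC1-E63R (1 and 0 without the outlying library). Over all genes 10.8% rose and 5.84% fell in HDAC1-Y48E, and 4.74% and 1.18% in HDAC1-E63R. The share of this list that rose was thus near that of all genes in each mutant. The metalloproteinase genes *Mmp11* and *Mmp14* fell in HDAC1-Y48E (-2.31 with adjusted p = 3.35e-12 and -1.26 with adjusted p = 4.32e-05), and their inhibitors went apart, *Timp1* falling and *Timp3* rising (-1.02 with adjusted p = 6.11e-05 and 1.02 with adjusted p = 0.00301, calls that held in 4 of 6 and 2 of 6 fits with 1 library left out).

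Markers of cells that are known to make such matrix were measured beside these results. Of 6 surface epithelium markers, 4 rose in HDAC1-Y48E and 3 in HDAC1-E63R, beside 10.8% and 4.74% of all genes. The call of *Trp63* in HDAC1-Y48E was lost whichever 1 of its 6 libraries was left out. The keratin gene *Krt5* had no count in either untreated mutant, and after OHT a mean of 11.4 CPM in HDAC1-E63R, at least 35.7-fold higher, and of 15.4 CPM in HDAC1-Y48E, at least 46.3-fold higher. The summed list read 752 to 768 CPM in untreated and 687 to 722 CPM in treated HDAC1-WT, 981 to 1035 and 995 to 1062 CPM in HDAC1-E63R, and 977 to 1009 and 1093 to 1172 CPM in HDAC1-Y48E. In HDAC1-WT and in both untreated mutants 3 of the 6 markers were under 1 CPM, so that the others carried the sum there.

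The next counts stand beside 10.8% up and 5.84% down over all genes in HDAC1-Y48E, and 4.74% and 1.18% in HDAC1-E63R. Of 8 primitive and parietal endoderm markers, 7 were tested, 1 rose in each mutant (in HDAC1-E63R 0 without the outlying library) and 1 fell in HDAC1-Y48E. Their sums were 53.4 to 54.0 CPM in untreated and 51.5 to 57.3 CPM in treated HDAC1-WT, 17 to 28.6 and 28.5 to 36.0 CPM in HDAC1-E63R, and 31.1 to 36.6 and 50.4 to 57.5 CPM in HDAC1-Y48E. Of 8 trophoblast markers 3 rose in HDAC1-Y48E, and 2 rose and 1 fell in HDAC1-E63R (2 and 0 without the outlying library). Their sums were 202 to 218 CPM in untreated and 216 to 249 CPM in treated HDAC1-WT, 82.4 to 90.4 and 156 to 166 CPM in HDAC1-E63R, and 79.6 to 94.1 and 104 to 109 CPM in HDAC1-Y48E. Of 8 fibroblast or mesenchyme markers 5 had means under 1 CPM in every group, and 1 of the 3 tested rose in each mutant, with sums of 48.8 to 56.7 and 65.4 to 67.6 CPM in HDAC1-WT, 37.7 to 41.7 and 47.1 to 56.1 CPM in HDAC1-E63R, and 46.1 to 51.2 and 70.4 to 74.2 CPM in HDAC1-Y48E. Of 5 tested endothelium markers 1 rose in each mutant and 1 fell in HDAC1-Y48E, and of 5 tested blood markers 1 fell in each. The endothelium sums were 180 to 202 and 194 to 204 CPM in HDAC1-WT, 95.8 to 132 and 108 to 124 CPM in HDAC1-E63R, and 145 to 157 and 77.5 to 90.6 CPM in HDAC1-Y48E. The blood sums were 49.8 to 57.9 and 41.1 to 47.8 CPM in HDAC1-WT, 35.5 to 36.5 and 25.5 to 32.4 CPM in HDAC1-E63R, and 40.2 to 44.5 and 32.2 to 37.7 CPM in HDAC1-Y48E. Of the 6 ESC markers 4 fell in HDAC1-Y48E and 0 in HDAC1-E63R. The part of such cells in the matrix results was not tested.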

How the data were processed

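Total RNA of 18 libraries was sequenced, and the deposited values are raw counts of reads per gene. Per the labels and the submitters' processing notes, the authors aligned reads to mm10 with HISAT2 2.1.0 and counted them with HTSeq, with SAMtools 1.9 also named. The 5 entries that name no gene held 59.4 to 61.2% of each file's reads and were left out. Gene totals of 9019615 to 11454638 counts limit low genes: 3 counts, the floor used for bounds, equal 0.262 to 0.333 CPM. Counting intervals and floors cover counting error only.

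CPM are counts per 1000000 gene counts, and CPM per kb divides them by the summed exon length from GENCODE vM21. Differences were tested with edgeR 4.0.16 (R 4.3.3, limma 3.58.1), with TMM factors, filterByExpr by group and quasi-likelihood F tests over all 18 libraries. Adjusted p-values are Benjamini-Hochberg over all 18791 tested genes, and a call needed adjusted p under 0.01 and over 2-fold. On simulated counts of 17096 genes for the HDAC1-Y48E comparison, 83.5% of 200 genes changed by 2 on the log2 scale were recovered, with 0 false calls. These 200 were drawn from genes over 1 CPM in untreated HDAC1-WT. All other genes were left unchanged and no outlying library was put in, so that these rates do not cover the lowest members. Alternatives were DESeq2 1.42.0, relative log expression factors, no low-count filter, a replicate block, the libraries compared alone, an adjusted p limit of 0.05, no fold limit and each library left out. Removal of each library's trend with exon length was added after seeing the data.

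The members, pathway lists and marker lists were chosen with earlier results of these data known. Named members were those called with a mean of at least 1 CPM and no overlap between treated and untreated libraries, the 3 most abundant of each family, the main laminin and collagen IV chains, *Itgb1*, head-to-head pairs, up to 5 called in an untreated comparison alone and up to 4 called genes of each pathway list. Other names, such as *Smoc2*, *Frem2*, partner chains and markers, were chosen after their values were seen. Promoter windows were matched for 58 of the 81 members by symbol. Results of one tested member are not reported here; counts and medians cover all tested members.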

Additional observations from a re-analysis of the deposited data

Results flagged for a closer look

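The OHT effect of a mutant line differed from that of HDAC1-WT for the members below, by the edgeR quasi-likelihood test of the difference itself with adjusted p under 0.01 and more than 2-fold. Values are log2 differences, mutant minus HDAC1-WT. For HDAC1-E63R they were 2.4 for *Col1a1*, 1.23 for *Col5a1*, 1.15 for *Col4a1*, 1.36 for *Col4a2* and 1.73 for *Col22a1*. Without replicate 3 of untreated HDAC1-E63R the *Col4a1* difference was 0.94 and no longer called, and the *Col22a1* call held in 4 of 12 fits with 1 library left out. For HDAC1-Y48E the fibrillar genes had 2.97 (*Col1a1*), 1.64 (*Col2a1*), 1.44 (*Col5a1*), 5.04 (*Col5a2*), 2.4 (*Col11a1*) and 1.64 (*Col27a1*). The other collagens had 2.62 (*Col22a1*), 1.7 (*Col7a1*), 6.07 (*Col6a5*) and 7.82 (*Col6a3*). The *Col6a3* and *Col6a5* values rest on 0 and 1 counts in untreated HDAC1-Y48E and depend on the small count added in the fit. The calls of *Col27a1*, *Col7a1* and *Col6a3* each held in 3 of 12 fits with 1 library left out. Laminins and integrins had 1.64 (*Lamb3*), 5.49 (*Itga1*), 1.74 (*Itga2b*) and 2.55 (*Itgal*). The *Itga1* and *Col5a2* sizes are also uncertain, with 4 and 9 counts in untreated HDAC1-Y48E. With 1 library left out they ranged from 4.94 to 9.20 and from 4.22 to 9.85. Between the mutants *Lama1* differed by -1.31, HDAC1-Y48E minus HDAC1-E63R, a call that held in 3 of 12 such fits. All of these comparisons with HDAC1-WT use the same 6 HDAC1-WT libraries.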

How the results depend on the processing

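In HDAC1-E63R 8 members rose in place of 20 when only the libraries compared were fitted, and 13 to 16 with 1 library left out. In the former fit the 12 calls lost included *Col2a1*, *Col4a1*, *Col6a2*, *Col11a1*, *Lamb3*, *Itga1* and *Itgal*. In HDAC1-Y48E 24 to 29 rose in place of 31 with 1 library left out, 0 to 1 fell, and without a fold limit 2 fell. In HDAC1-WT 2 rose with no low-count filter, 1 by DESeq2 and 1 with only the libraries compared. The HDAC1-E63R effect exceeded that of HDAC1-WT for 10 members with no filter, 10 by DESeq2, 12 at an adjusted p limit of 0.05 and 5 to 8 with 1 library left out. For HDAC1-Y48E against HDAC1-WT leaving out 1 library gave 11 to 16, and with the length trend removed 1 member had a smaller effect. For HDAC1-Y48E against HDAC1-E63R the members with a larger effect numbered 1 with relative log expression factors, by DESeq2, with only the libraries compared, with the length trend removed and at 0.05, 3 with no filter and 0 to 4 with 1 library left out. Those with a smaller effect numbered 0 with only the libraries compared and 0 to 1 with 1 library left out. In untreated HDAC1-E63R the higher members were 2 with no filter, by DESeq2, with the length trend removed, at 0.05 and with no fold limit, 0 with only the libraries compared and 0 to 2 with 1 library left out. The lower ones were 3 with only the libraries compared and 7 to 13 with 1 library left out. In untreated HDAC1-Y48E the lower members were 8 at 0.05, 9 with no fold limit and 3 to 6 with 1 library left out, the 3 being reached without replicate 2 of either line, and 1 was higher with no fold limit. The causes were not tested. Same-numbered libraries of a line correlated by -0.019 to 0.044 in their deviations from the group means. Within their line, 13 of 18 libraries correlated best with their own number. These values do not settle whether the numbers pair the samples, and the main fit held no replicate block. With the replicate number as a block, 19 members rose in HDAC1-E63R, 32 in HDAC1-Y48E, 6 and 14 exceeded HDAC1-WT, and 10 and 6 were lower in untreated HDAC1-E63R and HDAC1-Y48E. No result reversed. Low counts limit the genes under 1 CPM.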
